A study of Mus musculus with 8 samples.

Results

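Cytosolic ribosomal protein genes were examined for regions enriched for BRG1 in Tβ4-primed, injured mouse hearts. The genes were the multi-exon protein-coding genes of chromosomes 1 to 19 whose symbols name a protein of the small (Rps, Rpsa) or large (Rpl, Rplp) ribosomal subunit. A symbol qualified if it was Rpsa, Rplp0, Rplp1 or Rplp2, or if Rpl or Rps was followed by a number, at most 1 of the letters a, l and x, and an optional further number. Rps6k kinases and Rpl36al do not have this form. The rule took 77 of 18685 multi-exon protein-coding genes in the GENCODE annotation of mm9, 31 of the small and 46 of the large subunit. Rpl10, Rpl36a, Rpl39 and Rps4x lie on the X chromosome and Rpl10l has a single exon, so these 5 genes with qualifying symbols did not enter. The rule reads symbols and gene models and no BRG1 value.

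The ChIP-seq experiment comprised 8 libraries from hearts of adult C57BL/6 mice, 2 each for BRG1 ChIP and for input chromatin after priming with PBS and after priming with Tβ4. Tβ4, a small actin-binding peptide, was given by i.p. injection at 12 mg per kg daily for 1 week, and control mice were given PBS, the vehicle. Day 0 was the day of surgery, when a lasting tie on the LAD, a main coronary artery, caused MI. Mice were injected again on days 0 and 2, and their hearts were taken on day 4. The labels give an age of 10 to 12 weeks. The methods of the study give an older range for mice with MI. BRG1 was precipitated with a rabbit polyclonal antibody. From the Tβ4-primed hearts, 1 deposited list was used here, which holds 524614 regions where BRG1 ChIP exceeded input, with a median length of 600 bp. PBS-primed hearts, input and signal were not analysed here. The list gives positions without a height, a fold or a replicate, so the depth and the spread between hearts are unknown and no difference between treatments was tested. Whole hearts were used, so regions cannot be assigned to a cell type.

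The ribosome is built from a small subunit, which reads the mRNA, and a large subunit, which joins amino acids, and every growing cell makes their proteins in balanced amounts. Most of these genes are short, lie scattered over the genome, start transcription within a run of pyrimidines (the terminal oligopyrimidine or TOP motif), and often carry snoRNA genes in their introns. Their mRNAs have left many processed copies in the genome. BRG1 is an ATPase subunit of SWI/SNF complexes, which move or evict nucleosomes, and is known to occupy promoters and enhancers of active genes.

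Regions over the start base lay at 23 of 77 ribosomal protein genes, 29.9% (95% Wilson interval 20.8 to 40.8%). The background was 24.2% over all 18685 genes and 24% over genes of like length, for which the 200 genes nearest in length to each member were taken (15400 pairings with 4801 different genes). Within 500 bp of the start, 40 of 77 members had a region, 51.9% (41.0 to 62.7%), against 44.5% of all genes and 44% of genes of like length. Both background shares lay within the members' intervals, so these counts do not set the starts of ribosomal protein genes apart from other starts in this list. These intervals take genes as independent and include no error beyond counting. Within 5 kb of the start, 73 of 77 members had a region, 94.8% (87.4 to 98.0%), against 90.8% of all genes and 90.5% of genes of like length. Among the members without one were Rps27a, Rpl34 and Rplp1.

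The start window, 500 bp on each side of the start, was wholly covered at 9 members: Rpl17, Rpl19, Rpl22, Rpl29, Rpl39l, Rpl8, Rps13, Rps15a and Rps28. They make up 11.7% of members (6.27 to 20.7%), against 10.2% of all genes and 10.4% of genes of like length. Rps3 followed with 95.8%. The sequences upstream of 3 of these genes and of the 3 genes farthest from any region are shown, since they are the 2 ends of the range at the start. Each runs from 120 bases before to 15 bases from the annotated start in mm9, 5′ to 3′ along the gene. Capitals mark the letters CCGGAAG (GABP), GGGCGG (SP1), AAGATGG (YY1) or TATAA on either strand, and runs of at least 7 pyrimidines within 10 bases of the start. Rpl19, of the large subunit, starts inside a region (plus strand, chr11:97887904-97888038), as do Rpl22, whose protein also binds other cellular RNAs (plus strand, chr4:151699731-151699865), and Rpl29, a large subunit protein also described as binding heparin (plus strand, chr9:106331665-106331799).
Rpl19: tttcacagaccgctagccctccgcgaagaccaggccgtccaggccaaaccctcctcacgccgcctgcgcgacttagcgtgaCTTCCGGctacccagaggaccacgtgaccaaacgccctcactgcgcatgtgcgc
Rpl22: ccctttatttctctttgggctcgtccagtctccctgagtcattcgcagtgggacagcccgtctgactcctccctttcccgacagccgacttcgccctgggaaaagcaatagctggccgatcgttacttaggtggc
Rpl29: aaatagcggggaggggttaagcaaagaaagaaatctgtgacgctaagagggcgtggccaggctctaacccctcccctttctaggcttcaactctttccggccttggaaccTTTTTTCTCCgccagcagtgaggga
The capitals in Rpl19 are the GABP letters on the opposite strand, those in Rpl29 are a pyrimidine run at the start, and the Rpl22 window holds none of the searched letters.

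The nearest region to the start of Rplp1, a protein of the stalk that recruits translation factors, lay 9116 bp downstream (minus strand, chr9:61762331-61762465). For Rpl34, of the large subunit, the distance was 6937 bp downstream (minus strand, chr3:130433302-130433436). For Rps27a, which encodes ubiquitin joined to a small subunit protein, it was 6110 bp downstream (minus strand, chr11:29448095-29448229).
Rplp1: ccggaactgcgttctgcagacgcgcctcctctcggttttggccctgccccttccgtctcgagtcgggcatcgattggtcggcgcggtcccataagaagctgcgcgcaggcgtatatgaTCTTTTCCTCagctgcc
Rpl34: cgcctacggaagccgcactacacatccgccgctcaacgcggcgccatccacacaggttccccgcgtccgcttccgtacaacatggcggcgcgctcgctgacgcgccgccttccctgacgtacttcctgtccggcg
Rps27a: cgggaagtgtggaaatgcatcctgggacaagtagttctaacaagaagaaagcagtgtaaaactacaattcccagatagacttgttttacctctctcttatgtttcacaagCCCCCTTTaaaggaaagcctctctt
Pyrimidine runs at the start were found in Rplp1 and Rps27a, and the Rpl34 window holds none of the searched letters, so both ends of the range include windows with and without a run. A match is a description of letters and no measure of a bound factor.

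**Figure D1:**
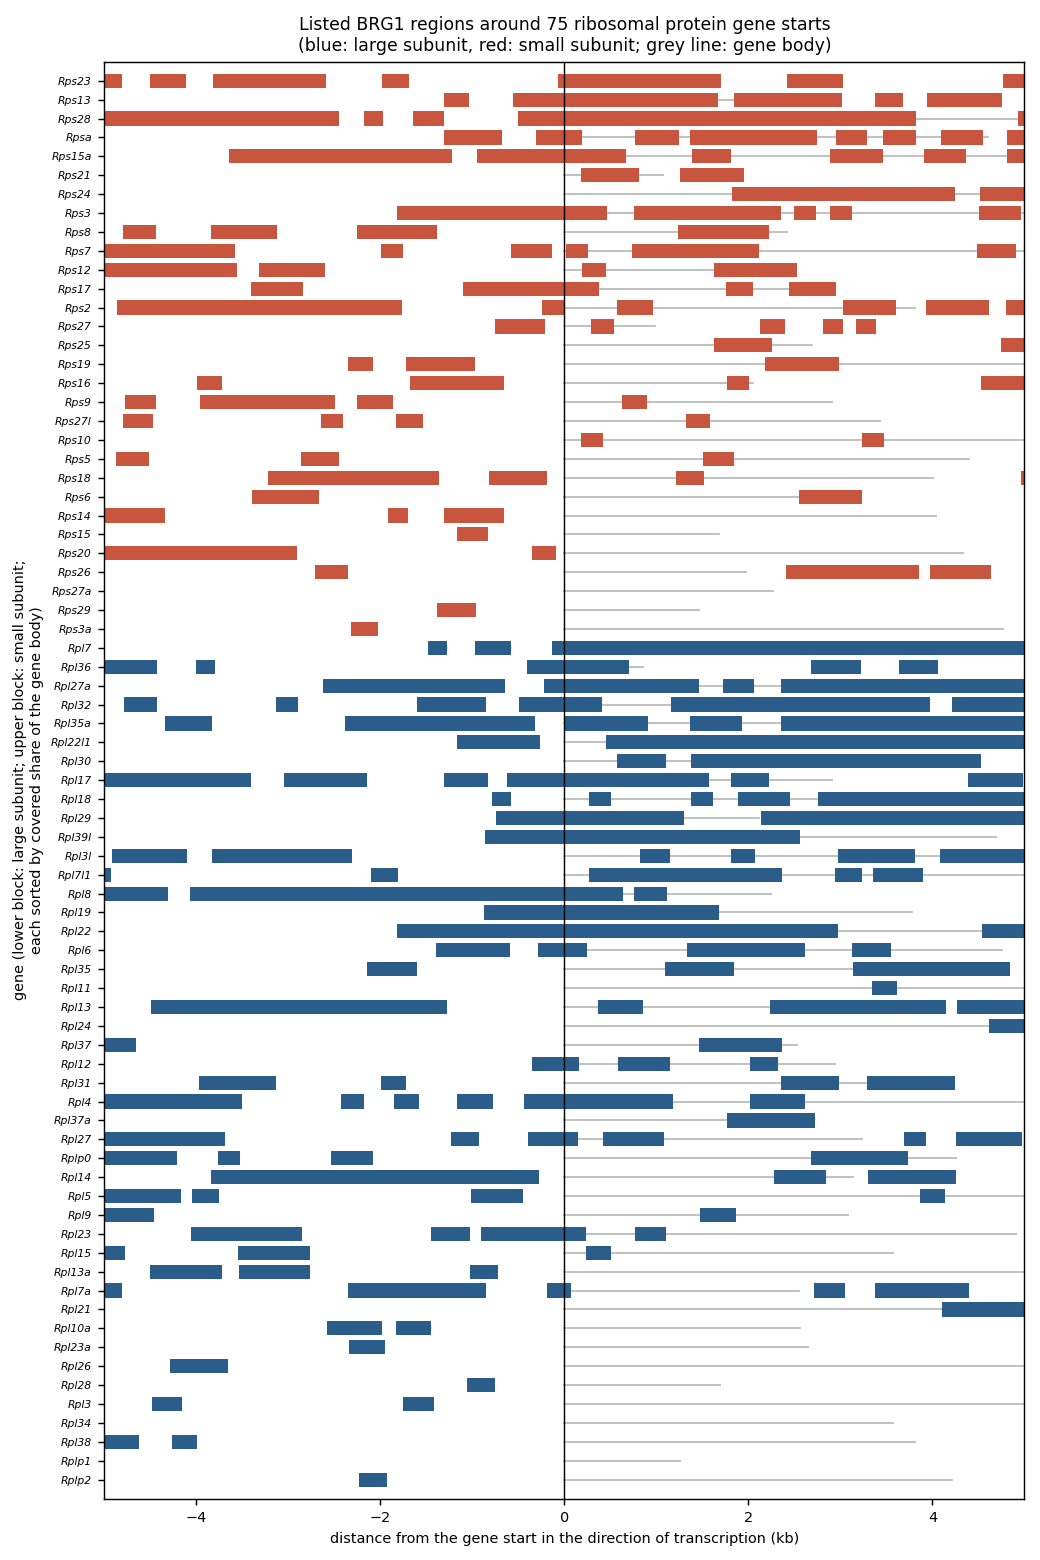
Listed BRG1 regions (filled bars) within 5 kb of the start of 75 of the 77 genes, in kb along the direction of transcription; grey lines are gene bodies. Regions over the start base are seen at 23 genes, and Rps27a, Rpl34 and Rplp1 have no bar.

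Of the 54 members whose start base lay outside regions, 26 had the nearest region upstream and 28 downstream, at a median distance of 1033 bp. Some missed the start by little. The region upstream of Rps2, a protein near the mRNA entry of the small subunit, ended 2 bp before its annotated start. The start of Rps2 in RefSeq, another annotation, lay 1947 bp further downstream, with no region within 500 bp of it. The region at Rpl35a began 11 bp after the start, and that at Rps7 19 bp after it. Region lengths come in steps of 30 bp, apart from regions over 100 kb, so such distances are finer than the list can resolve. In bins of 250 bp the members' mean covered share lay on either side of that of genes of like length, but the 2 sides of the start differed. Upstream it was the lower from 4500 to 1250 bp before the start and the higher in the other bins. Downstream it was the higher except in the bins 1000 to 1250, 3750 to 4000 and 4250 to 4500 bp after the start. The members' mean was 24.2% from 5 to 0.5 kb upstream (genes of like length 25.8%), 30.9% in the last 0.5 kb before the start (25.3%), 31.3% in the first 0.5 kb after it (24.8%) and 29.5% from 0.5 to 5 kb downstream (26.3%). The median covered share of the 10 kb was 25.5% for members, 21.9% for genes of like length and 22.5% for all genes.

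**Figure D2:**
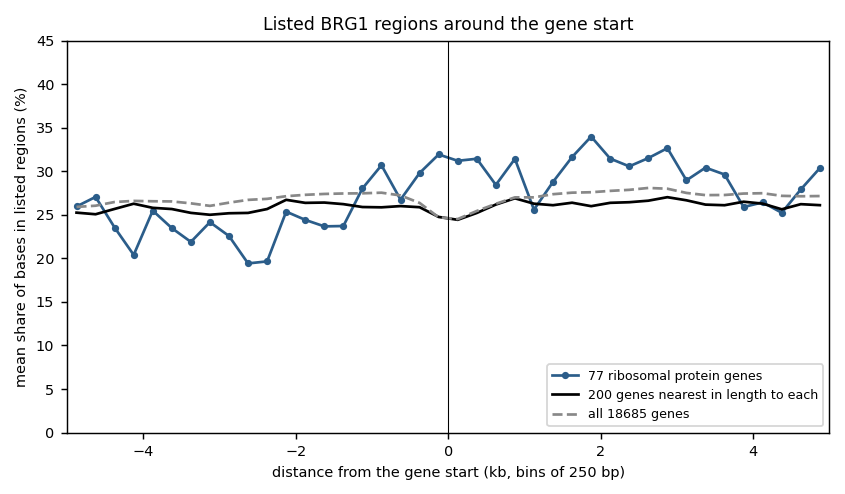
Mean share of bases inside listed regions (%) in bins of 250 bp from 5 kb before to 5 kb after the start, for the 77 ribosomal protein genes, for the 200 genes nearest in length to each and for all 18685 genes. The members' line crosses the others on both sides of the start and is at 31.9% in the last bin before it against 24.8% for genes of like length.

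Gene bodies of ribosomal protein genes were short, with a median of 3431 bp against 19931 bp for all genes, from 849 bp at Rpl36 to 42639 bp at Rpl24. A region lay in the body of 59 of 77 members, 76.6% (66.0 to 84.7%), against 90.2% of all genes and 66% of genes of like length. The share among genes of like length thus fell at the lower bound of the members' interval, and its place depended on the overlap asked for. With at least 10% of the body covered it lay within the interval (members 63.6%, 52.5 to 73.5%; genes of like length 55.1%). With a whole region inside the body it lay under the interval (members 59.7%, 48.6 to 70.0%; genes of like length 45.9%). The shares of all genes, which are longer, were 79.3 and 84.4%. The median covered share of the body was 25.2% for members (quartiles 2.97 and 50.5%), 14.1% for genes of like length and 24.8% for all genes. The mean was 31.3% for members and 25.9% for genes of like length. Ranked from 0 to 100 among the 200 genes nearest in length, members had a median rank of 65, and 45 of 77 ranked above the middle. Rpl7, Rps23 and Rps15a ranked above 95, and none ranked under 5, although a body without a region shares its rank with many uncovered genes of like length. The 95% binomial interval of the median ran from 11.7 to 39.6% for the covered share and from 46 to 71.5 for the rank. Both intervals included the value of genes of like length (14.1% and the middle rank of 50), so they do not set the members' higher medians apart from those values.

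**Figure D3:**
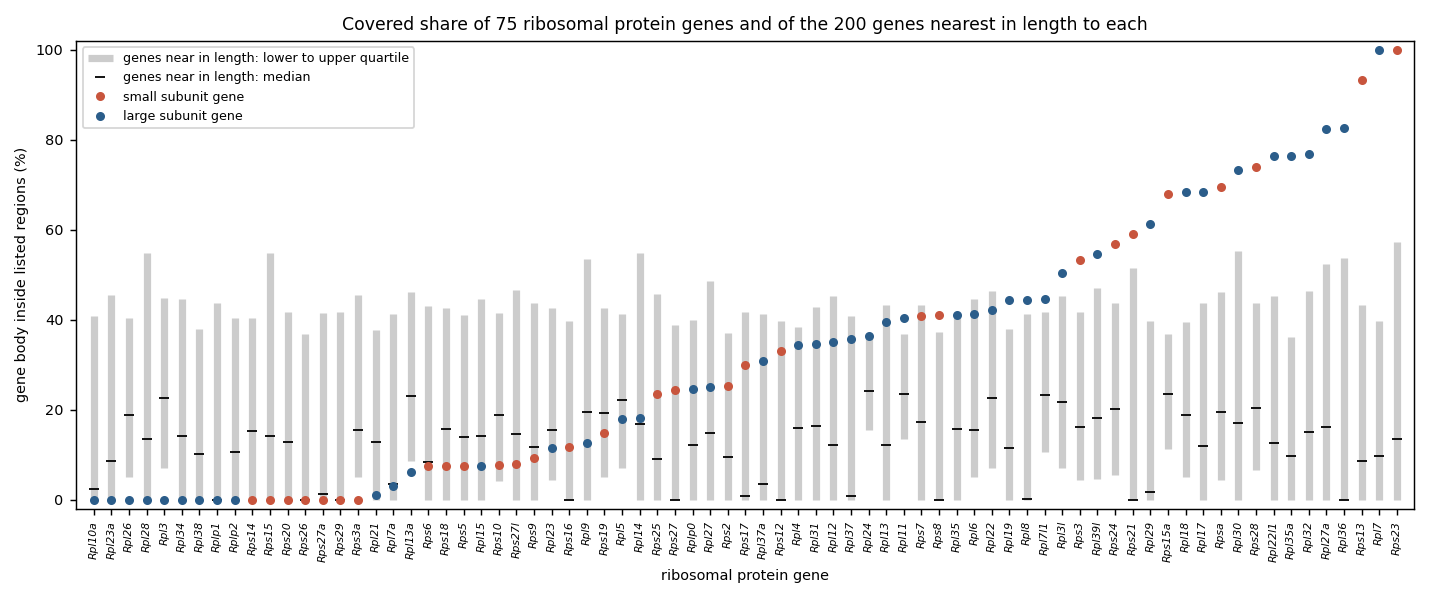
Covered share of the gene body (%) of 75 of the 77 ribosomal protein genes (points, red for the small and blue for the large subunit), with the median (dash) and quartiles (grey bar) of the 200 genes nearest in length to it. The points run from 0% at 16 genes to 100% at Rpl7 and Rps23.

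Of the small subunit, 23 of 31 genes had a region in the body, 74.2% (56.8 to 86.3%), against 90.2% of all genes and 66% of genes of like length to any member. Over the start base 7 had one, 22.6% (11.4 to 39.8%), against 24.2 and 24%. Rps23, a protein of the decoding centre, was covered over 100% of its 1603 bp by 1 region (chr13:91062727-91064329). Rps13 was covered over 93.3% of its body (chr7:123475021-123477704) and over its whole start window, and ranked 93.5 among genes of like length. Rpsa, known also as a precursor of the laminin receptor, held 6 regions over 69.4% of its body (chr9:120036884-120041487). Rps3, which lines the mRNA entry and also takes part in DNA repair, held 6 regions over 53.3%. Rps15a reached 68.0% and Rps28 73.8%. Rps21 (58.9%) and Rps24 (56.9%), named after their values were seen, also had over 50% of the body covered.

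The other named genes of the small subunit ran from no coverage to 40.9% at Rps7. Rps6, the substrate of S6 kinase, was covered over 7.48% of its body by 1 region, and its start was 2547 bp from the nearest one. Rps18, a protein of the small subunit head and a frequent reference gene in expression assays, was covered over 7.49%. Rps19, the gene most often mutated in Diamond-Blackfan anaemia, reached 14.9% with no region within 500 bp of its start. Rps2 reached 25.2%, the median of the members, with 2 regions. No region lay in the bodies of Rps14 (linked to the anaemia of 5q deletion in humans), Rps15, Rps20, Rps26, Rps27a, Rps29 or Rps3a. Of these, Rps20 had a region just before the start, 88 bp upstream. The median covered share over the small subunit was 14.9%.

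Of the large subunit, 36 of 46 genes had a region in the body, 78.3% (64.4 to 87.7%). The share was 90.2% over all genes and 66% over genes of like length to any member. The median covered share of the 46 genes was 34.8%. Over the start base 16 had one, 34.8% (22.7 to 49.2%), an interval that includes the 24.2% of all genes. The intervals of the subunits overlap, and the difference between them was not tested. Rpl7 (chr1:16091376-16094743) lay wholly inside 1 region and ranked 98 among genes of like length. Rpl36, the shortest member, was covered over 82.7% of its body (chr17:56752818-56753666). Rpl27a was covered over 82.3% by 3 regions (chr7:116662661-116665881). Rpl4, which lines the exit tunnel, had 94.4% of its start window and 34.3% of its body covered. Rpl8, a protein close to the peptidyl transferase centre, had its whole start window and 44.4% of its body covered, and Rpl17, which lies at the tunnel exit, had its whole start window and 68.5% of its body covered.

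Rpl5 and Rpl11, which together bind Mdm2 when ribosome assembly is disturbed, were covered over 18.0% (3 regions) and 40.3% (7 regions) of their bodies. Neither had a region over its start base, and at Rpl11 the nearest one lay 3344 bp downstream. The annotated body of Rpl11 spans 25164 bp, 1 of 4 bodies over 10 kb. Rpl13a, known for a second role in silencing of inflammatory mRNAs, was covered over 6.10% of a body of 10860 bp. No region lay in the bodies of Rpl3, Rpl10a, Rpl23a, Rpl26, Rpl28, Rpl34, Rpl38, Rplp1 or Rplp2. Rpl23a is a docking site at the tunnel exit, and Rpl38 is known for its part in translation of Hox mRNAs. In all, 18 members of both subunits had no region in the body and share the lowest value.

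The stalk of the large subunit, where GTPase translation factors bind, is formed by Rplp0, Rplp1 and Rplp2. Rplp0, its base, had 1 region over 24.6% of the body and the nearest one to its start 2087 bp upstream. Rplp1 and Rplp2 had no region in the body, and Rplp1 was the 1 member with none in the body and 5 kb on each side. None of the stalk genes had a region within 500 bp of the start.

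All 5 paralogs had a region in the body (interval 56.6 to 100%, which holds the 90.2% of all genes), and their median covered share was 50.5%. Rpl3l, which replaces Rpl3 in ribosomes of heart and skeletal muscle, held 5 regions over 50.5% of its body (chr17:24864774-24873094) and ranked 78. Rpl3, a protein of the peptidyl transferase centre, had none over 5626 bp (chr15:79908211-79913836) and ranked 7.25. Of the 4 paralogs with a partner among the members, Rpl3l exceeded its partner by most. The annotated start of Rpl3l lay 816 bp from the nearest region. A RefSeq start 3 bp upstream of it had no region within 500 bp either. Another RefSeq start, 4856 bp downstream of the annotated one, lay inside a region. Rpl22l1 was covered over 76.4% of its body and its partner Rpl22 over 42.2%, although Rpl22 had its start inside a region and Rpl22l1 did not. In the other pairs the partner was covered more: Rps27 over 24.5% and Rps27l, a target of p53, over 7.87%. Rpl7l1, a factor of large subunit assembly, held 7 regions over 44.6%, and Rpl7 was wholly covered. Rpl39l, a paralog most abundant in testis, was covered over 54.7% and over its whole start window, and its partner Rpl39 on the X chromosome was not analysed here.

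**Figure D4:**
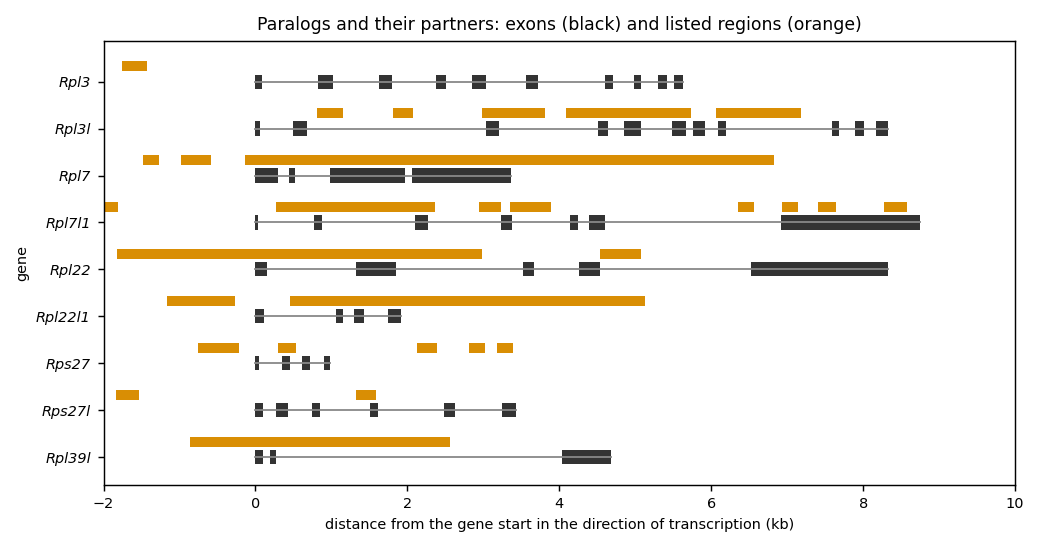
Exons (black) and listed BRG1 regions (orange) along the paralogs Rpl3l, Rpl7l1, Rpl22l1, Rps27l and Rpl39l and the partners Rpl3, Rpl7, Rpl22 and Rps27, in kb from the gene start along the direction of transcription. Rpl3 has no region in its body, and Rpl3l has 5.

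Exons and introns were covered to a like degree. Over all members together, regions covered 31.1% of 139082 exon bases and 34.1% of 217308 intron bases, and in genes of like length 26.3 and 26.8%. The longest bodies, Rpl24 and Rpl11, weigh most in the intron share, with 39.9 and 42.8% of their intron bases covered. The reads had been mapped by the authors with at most 2 hits allowed in the genome, and processed copies make exons of ribosomal protein genes repetitive. In members, 18.0% of exon bases and 5.72% of intron bases fell in 31-mers found more than 2 times in mm9, against 6.86 and 10.8% in genes of like length. Repeated exon bases were covered to 28.5% and those with at most 2 copies to 31.7%. At single genes there was no common pattern: Rps23, with 71.3% of exon bases repeated, was wholly covered, and Rpl3, with 65.8%, and Rps3a, with 63.2%, had no covered exon base. Rpl3l, with 0% repeated, had 51.2% of its exon bases covered. The rank correlation of the repeated and the covered share over the 77 genes was -0.03, and the part of mappability in the values of single genes was not tested.

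**Figure D5:**
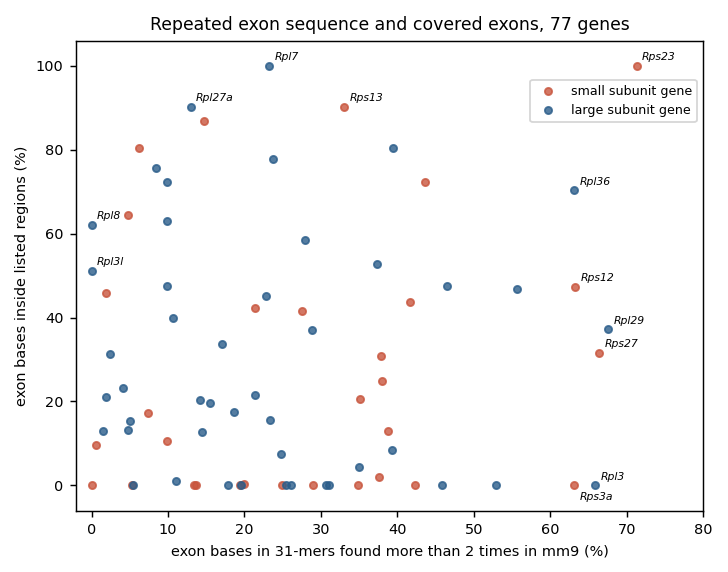
Share of each gene's exon bases in 31-mers found more than 2 times in mm9 (%, horizontal) against the share of exon bases inside listed regions (%, vertical), 1 point for each of the 77 genes, red for the small and blue for the large subunit. Genes with strongly repeated exons are found from 0% (Rpl3, Rps3a) to 100% (Rps23).

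At the end of the gene, 43 of 77 members had a region within 500 bp, 55.8% (44.7 to 66.4%), against 43% of all genes and 43.1% of genes of like length, both just under the interval. The counts at the end, alone and together with the start base, and the other settings were chosen after seeing the data. With the other settings (windows of 250 or 1000 bp, the end base alone, or regions at least as long as the median), the shares of all genes and of genes of like length lay within the members' interval or, for genes of like length, less than 1 percentage point under it. Regions over both the start base and the window of 500 bp at the end were seen at 15 members, 19.5% (12.2 to 29.7%), against 11.5% of all genes and 14.9% of genes of like length. The members held 143 regions in their bodies, with a median length of 570 bp, and 26 members held a single one. The 23 regions over members' start bases had a median length of 1680 bp, against 2010 bp for regions over the start base of any gene. Away from the genes, from 5 to 55 kb on each side, the mean covered share was 25.1% around members and 25.8% around all genes.

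Many members host snoRNA genes, whose products guide modification of rRNA. They were 28 of 77 members, 36.4%, against 2.21% of the other genes, and carried 57 snoRNA genes. Regions touched 21 of these, 36.8%, against a background of 28.7% of 488 snoRNA genes inside other genes. All 3 snoRNA genes inside Rpsa and all 3 inside Rpl17 were touched, whereas none of the 4 inside Rpl7a and none of the 3 inside Rpl23a was. Start bases lay in a region at 11 of 28 hosts, 39.3% (23.6 to 57.6%), and at 12 of 49 other members, 24.5% (14.6 to 38.1%), with overlapping intervals that both include the 24.2% of all genes. Rpl7a was named here after its values were seen.

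A start of another protein-coding gene on the opposite strand lay within 1 kb of 12 members. A region within 500 bp of the start was found at 9 of these, 75% (46.8 to 91.1%), and at 31 of 65 members without such a neighbour, 47.7% (36.0 to 59.6%). Over all genes the shares were 47.9% of 2190 with and 44.1% of 16495 without such a neighbour. The members' intervals overlap, and over the start base itself the shares were close, 33.3% (4 of 12) and 29.2% (19 of 65), against 23.8 and 24.2% over all genes. Among the 12 were Rpl4 beside Zwilch, Rps18 beside Vps52 and Rps28 beside Ndufa7. A region at such a start cannot be assigned to either gene. Members also shared neighbourhoods with each other, such as Rps2 and Rpl3l, which lie 5899 bp apart on chromosome 17.

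The start sequences of members shared features that the rule did not use. From 250 bases before to 50 bases after the start in mm9, on both strands, CCGGAAG (GABP) was found at 24 of 77 members, 31.2%, and at 12.1% of all genes. AAGATGG (YY1) was found at 11.7% and 6.53%, and GGGCGG (SP1) at 45.5% and 48.2%. TATAA in the 50 bases upstream was found at 5.19% and 5.82%. A run of at least 7 pyrimidines within 10 bases of the start was found at 20.8% of members and 12.8% of all genes. At RefSeq starts, given with the GRCm38.p6 build for 56 members, the run was found at 28 of 56 members, 50%, and at 15.5% of 12757 genes, and CCGGAAG at 41.1% and 14.4%. AAGATGG was found there at 17.9% and 7.55%, GGGCGG at 58.9% and 56.2%, and TATAA at 8.93% and 7.08%. For GGGCGG and TATAA the members' share was thus the lower at annotated starts and the higher at RefSeq starts. The RefSeq shares rest on fewer genes, and a gene counted there if any of its RefSeq starts matched. They are therefore not directly comparable with the shares at annotated starts. The median ratio of observed to expected CpG in the start window was 0.81 for members, 0.36 for genes of like length and 0.61 for all genes. The start sequences were thus rich in CpG and in GABP letters. Start bases lay in a region at 7 of 24 members with GABP letters, 29.2% (14.9 to 49.2%), and at 16 of 53 without, 30.2% (19.5 to 43.5%). The share over all genes was 24.2%. Within 500 bp of the start a region lay at 45.8% with GABP letters and 54.7% without, against 44.5% of all genes. Within 500 bp of the end the shares were 45.8 and 60.4%, against 43% of all genes. The median covered share of the body was 29.0% with GABP letters and 25.2% without. Start bases lay in a region at 1 of 9 members with YY1 letters, 11.1% (1.99 to 43.5%), and at 22 of 68 without, 32.4% (22.4 to 44.2%). Other measures went the opposite way. A region lay within 500 bp of the start at 66.7% with YY1 letters (35.4 to 87.9%) and 50% without (38.4 to 61.6%), against 44.5% of all genes. Within 500 bp of the end one lay at 8 of 9 members with YY1 letters, 88.9%, and 35 of 68 without, 51.5%, against 43% of all genes. No interval is given for these end shares. The median covered share of the body was 40.9% with YY1 letters and 25.1% without. Of the 4 members with TATAA (Rpl23a, Rps14, Rps26 and Rps27), Rps27 alone had a region in the body, 25% (4.56 to 69.9%), against 58 of 73 without, 79.5% (68.8 to 87.1%). The share was 90.2% over all genes and 66% over genes of like length. RefSeq starts could not repeat this split at the same genes, since none was given for Rpl23a and Rps14. There TATAA was found at 5 members (Rpl22l1, Rps9, Rps18, Rps26 and Rps27), of which Rps26 alone had no region in the body. The intervals given overlap in each split, the groups with YY1 letters or TATAA are small, and no difference was tested. Rank correlations over the 77 members between the covered share and GC content, CpG ratio, length and surrounding coverage lay between -0.15 and 0.09, too weak to be read as relations.

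Values for 2 other groups of protein synthesis genes, which are longer than the members, are given beside them. Of 76 genes for mitochondrial ribosomal proteins, which make up the separate ribosome of mitochondria, 60 had a region in the body, 78.9% (68.5 to 86.6%), and 16 had one over the start base, 21.1% (13.4 to 31.5%), against 90.2% and 24.2% of all genes. Their median covered share was 19.5% over a median length of 7734 bp. Of 56 translation and ribosome factors, 53 had a region in the body, 94.6% (85.4 to 98.2%), and 17 had one over the start base, 30.4% (19.9 to 43.3%). The shares of all genes lay within both intervals of the factors. The factors had a median covered share of 26.9% over longer bodies (median 14749 bp). Among them, Pabpc1, the poly(A)-binding protein, was covered over 77.2% of its body and over its whole start window. Eef1a1, the factor that delivers aminoacyl-tRNA, was covered over 49.6%, with no region within 500 bp of its start. Fau, whose product is joined to a ribosomal protein of the small subunit, was covered over 16.6%. Tpt1, a TOP gene, and Rpl36al, a paralog of Rpl36a, had no region in the body. These 5 genes were picked from the list of factors after their values were seen.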

How the data were processed

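BRG1 ChIP and input libraries (2 of each per treatment) were mapped by the authors with Bowtie (version 1.0.0 in the submitters' processing notes) to mm9, and regions were called with MACS2 (2.0.10). The deposited values used are the start and end of each region, in bp. Regions were scored with bdgcomp according to the methods, but the list is named like the output of a comparison of conditions. How duplicates were combined is not stated. Depth is unknown.

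Regions were counted over GENCODE genes of mm9 with at least 1 bp of overlap, with Python 3.11.15, numpy 2.4.6, pandas 2.3.3, scipy 1.17.1, numba 0.67.0 and matplotlib 3.10.9. The same counts and bases were obtained with bedtools 2.31.1 for 18685 of 18685 genes, and the counting was tested on simulated regions. The gene start was the outermost 5′ end of the gene. RefSeq promoters (GRCm38.p6) were used as sequences, and their starts were placed in mm9 by exact matches of 300 bases.

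Members and lists were chosen with earlier results of these data known. Named genes were up to 10 members with a covered start, the 5 with the highest and lowest covered body (ties included), the stalk genes, Rpsa, the paralogs with their partners, and 14 further genes: Rps6, Rps27a, Rpl13a, Rps14, Rps19, Rpl11, Rpl5, Rpl10a, Rpl38, Rps3, Rps2, Rpl4, Rpl23a and Rps18. Others were named after their values were seen. Values of 2 members are not reported here singly. Alternatives changed the window, the overlap, the regions used, the members and the genes of like length. No test was made, since 1 list has no replicate.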

Additional observations from a re-analysis of the deposited data

How the results depend on the processing

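No paired analysis was possible because the 1 list used does not separate the duplicates and no test was made. Of 44 alternatives, 37 left a count within 1.5 times its main value or a median within its 95% binomial interval. Some of the 37 had little or no room to move. Leaving out regions longer than 100 kb gave the main values again, and the longest region in a member body was 7050 bp. Joining regions within 500 bp gave the same counts. Regions within 500 bp of the start were counted at 40 members, at 23 when the start base itself had to be covered, at 24 when at least 50% of the window had to be covered, and at 26 with regions at least as long as the median. These settings are stricter by construction, and the share of all genes fell as well. It was 44.5% within 500 bp (members 51.9%) and 24.2% over the start base (members 29.9%). With at least 50% of the window covered it was 23.5% (members 31.2%), and with long regions 31.3% (members 33.8%). The covered share of exons was 31.7% with 31-mers of at most 2 copies and 29.4% with protein-coding transcripts alone, and that of introns was 34.4% with 31-mers of at most 2 copies, all outside narrow intervals that treat bases as independent. The median rank ran from 62 to 66 over its alternatives, among them 50 of the 200 genes nearest in GC content. The count at the gene end with its alternatives, RefSeq starts and bodies up to 10 kb were chosen after seeing the data. A region within 500 bp of the end was found at 43 members, and 23 had one over the end base itself, 29.9%, against 27.4% of all genes. RefSeq starts gave a region within 500 bp at 29 of 56 members, 51.8% (39.0 to 64.3%), against 44.5% of all genes at annotated starts. The measures differ: a member counted if any of its RefSeq starts had a region, while the background has 1 start per gene. Rpl3l counted only through its start 4856 bp downstream of the annotated one. Bodies up to 10 kb gave a median covered share of 25% and a median rank of 64. With no score in the list, no stricter threshold could be set, and weak and strong regions count alike.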
